A study of Sus scrofa with 12 samples.

Results

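The comparison asked what changed in the transcriptome of pig induced pluripotent stem cells that carry a NANOG reporter when the Activin/TGF-β receptor inhibitor SB431542 was applied. Of the 12 libraries of the series 6 enter it: 3 from SB431542-treated knock-in lines and 3 from untreated knock-in lines, matched by the number 1 to 3 in the labels, which is called the line here. The labels do not say that equal numbers mark one line, but equally numbered libraries deviated from their group means together. All 6 come from cultures made with the same reporter insert, in PC-iPS cells, an iPS line derived from adult pig pericytes. The insert joins FLAG, P2A and tdTomato to NANOG, followed by a puromycin resistance gene with its own promoter. Untreated lines are labelled as Nanog knock-in reporter PC-iPS, and treated lines by the name of the compound. The 3 Activin A libraries of the same knock-in lines are given beside the members, and the 3 libraries of the parental line without the reporter entered no test here.

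Several features of the design limit what the comparison isolates. The treated and the untreated libraries were deposited in separate tables. The paper gives LIF-free medium (T1, which is LCDMV without LIF) for the treatment, although the labels give LCDMV for all libraries; LCDMV contains LIF, the GSK3 inhibitor CHIR99021, dimethindene, minocycline and vitamin C. Table, medium and inhibitor therefore cannot be told apart in any difference between treated and untreated lines. The labels do not say whether the cultures of either group grew on feeder cells, so a difference in feeders cannot be told apart either. The paper ran its cytokine screen without feeders. It reports that NANOG tdTomato became undetectable over passages in T1 without them. Each line is a culture sorted for tdTomato, not a clone, and its cells may differ in how many NANOG copies carry the reporter. The dose and the duration of the treatment behind these libraries are not given in the labels. Nothing in the labels says how the cultures of one line were separated, so the p-values measure the spread between these libraries only. Feeder cells were removed by 1 hour of plating before RNA was taken.

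Activin, Nodal and TGF-β bind type II and type I serine/threonine kinase receptors, which phosphorylate SMAD2 and SMAD3, and these enter the nucleus with SMAD4. SB431542 blocks the kinase of the type I receptors ALK4, ALK5 and ALK7 and leaves the BMP type I receptors largely free. In epiblast-like pluripotent cells, SMAD2/3 binds the NANOG promoter and also switches on its own feedback inhibitors, among them SMAD7, PMEPA1 and LEFTY2. Activin A is a ligand of the same receptors, so its libraries form the opposite treatment.

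The finding turns on NANOG, the homeodomain pluripotency factor to which the reporter was attached. The guide that cut both NANOG loci for the knock-in, shown because these loci are where the reporter reads the outcome, was taken from the oligo list of the study, with the PAM in capitals.
NANOG guide target: atcttcaggctgtatgttcaTGG
RefSeq places genes named NANOG on chromosome 1 from 169064134 to 169065292 and on chromosome 5 from 62931642 to 62939086 of Sscrofa11.1. The tables pair the symbol with 1 identifier, ENSSSCG00000040403, and reads of the 2 loci could not be separated here. The number of bases in the guide is 20, followed by 3 bases of PAM.

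Values are FPKM, fragments per kilobase of transcript scaled to the mapped fragments of each library, so they allow for gene length and library size. FPKM summed to 370121 to 378904 in the untreated libraries and to 364241 to 373117 in the SB431542 libraries, and mitochondrially encoded genes took 9.71 to 11.5% and 9.44 to 11.5% of it. Relative depth, judged from the steps of low values, ran from 0.727 to 1 in untreated and from 0.824 to 0.959 in SB431542 libraries, with the first untreated library set to 1; absolute depth is unknown. The median difference between a treated library and the untreated library of its line was 0.012, -0.007 and 0.002 on the log2 scale in lines 1, 2 and 3, so the middle of the distribution lay at nearly the same place in both tables. Log2 levels correlated at 0.9905 to 0.9916 across genes between the SB431542 and untreated libraries of one line, which lie in separate tables, and at 0.9826 to 0.9862 between the SB431542 and Activin A libraries of one line, which share a table. Genes are not independent replicates in these correlations.

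SB431542 libraries differed from untreated ones in few genes that passed the test, and most of those were lower. Of 13983 genes tested, 7 (0.0501%) fell and 2 (0.0143%) rose past both thresholds, an absolute log2 change of 1 or more with adjusted p not above 0.05 (limma on log2(FPKM + 1), line as a block, n = 3 pairs). Among the genes that fell were NANOG, WFDC1, NEUROG1, COL1A2, PMEPA1 and RASL11A, and KRT8 rose. The other gene counted as higher, the small RNA gene RF00598, was listed at 0 in the untreated libraries and passed the filter on low values only through the SB431542 libraries, so its call is no independent test; with a filter of 1 FPKM 1 gene was called higher. With the adjusted p alone, without the fold threshold, 9 genes (0.0644%) were lower and 3 (0.0215%) higher, which adds ACTG2, NNAT and LIN28A. An unadjusted p under 0.05 was reached by 2012 genes, 14.4% of those tested. The calls rest on the matching: without the line as a block limma called 0 genes. In that fit 631 of the 13983 genes had an unadjusted p under 0.05, no more than such a cut admits by itself. With line 1 left out limma called 0 genes, where 1436 had an unadjusted p under 0.05, with line 2 left out it called 1 lower and 1 higher, and with line 3 left out 13 lower and 6 higher.

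**Figure D1:**
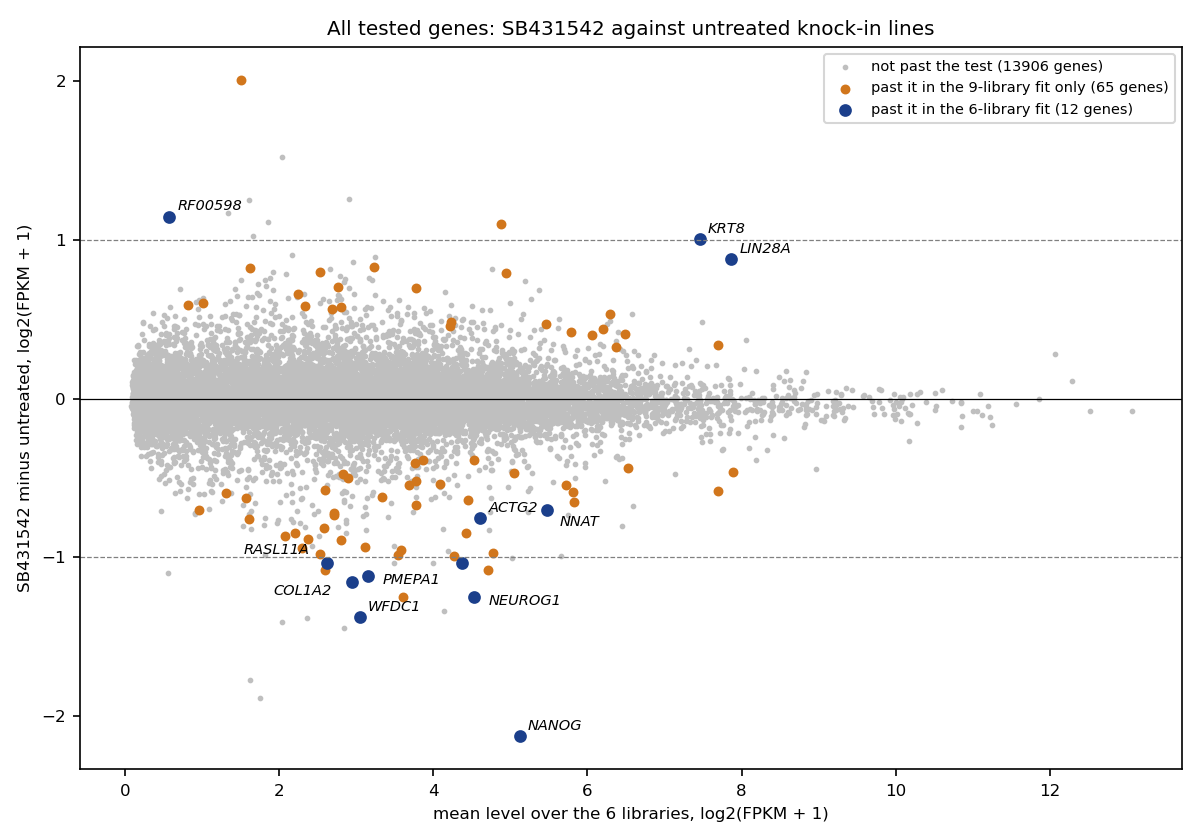
Difference between SB431542 and untreated knock-in lines (vertical axis, log2(FPKM + 1), mean of 3 lines) against the mean level over the 6 libraries (horizontal axis, log2(FPKM + 1)), one point for each of 13983 tested genes. The 12 genes past an adjusted p of 0.05 are blue, with 11 of them named, genes past it only when the Activin A libraries joined the fit are orange, dashed lines mark a log2 change of 1 in each direction, and NANOG lies lowest at -2.13.

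When the 3 Activin A libraries were added to the same fit, which adds residual degrees of freedom, 50 genes (0.358%) were lower and 27 (0.193%) higher in SB431542 than in untreated lines at an adjusted p of at most 0.05. All 12 genes of the 6-library fit were among them. Genes named below from this fit did not pass with 6 libraries and were chosen after their values were seen. Activin A is given side by side in what follows. Its comparisons share libraries with the main one, SB431542 against Activin A through the treated and Activin A against untreated through the untreated libraries. At an adjusted p of at most 0.05, SB431542 was lower than Activin A in 233 (1.66%) and higher in 170 (1.21%) of 13999 genes, and Activin A was lower than untreated in 21 (0.151%) and higher in 47 (0.337%) of 13945.

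NANOG fell in all 3 lines. Its level was 52.0, 101 and 70.4 FPKM in untreated lines 1, 2 and 3 and 11.8, 27.2 and 11.8 FPKM with SB431542. The groups did not overlap, since line 2, the highest treated library, stayed below the lowest untreated one, and line 2 was the highest line with and without the compound. The share of all genes without overlap was not counted, so a lack of overlap, here and below, only describes the values. Untreated FPKM was 4.42, 3.72 and 5.95 times the treated FPKM of the same line. On the log2(FPKM + 1) scale the change was -2.13 ± 0.12 (SE, 95% interval -2.44 to -1.82, adjusted p = 0.036). An exact two-sided permutation test of the 6 values, without regard to line, gave p = 0.1, the smallest that 3 against 3 allows. For 3 pairs the smallest exact p would be 0.25. With Activin A the same lines had 109, 195 and 157 FPKM, so each line ordered as SB431542, untreated, Activin A. SB431542 lay 3.18 below Activin A (adjusted p = 0.011), and Activin A 1.05 above untreated (adjusted p = 0.010), on that log2 scale.

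PMEPA1, a membrane protein that holds SMAD2/3 away from the receptor as feedback, was the other SMAD2/3 target to fall. It lies on chromosome 17 from 57999287 to 58054329. Its level was 14.6, 9.99 and 12.3 FPKM in untreated lines 1 to 3 and 6.66, 4.11 and 4.70 FPKM with SB431542, again with no overlap. The log2 change was -1.12 ± 0.08 (SE, adjusted p = 0.036), and the 3 lines differed little in it, from -1.02 to -1.23. Activin A libraries had 25.0, 15.9 and 17.9 FPKM, above the untreated library of each line (log2 difference 0.62, adjusted p = 0.049).

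SMAD7 and LEFTY2, named by the study with NANOG, were low in every untreated library. SMAD7, the inhibitory SMAD that recruits ubiquitin ligases to the receptor, measured 2.59, 2.03 and 2.24 FPKM untreated and 1.75, 1.11 and 1.37 FPKM with SB431542. The treated values lay below all untreated ones, but the log2 difference of -0.45 ± 0.08 (SE) did not pass (adjusted p = 0.14). In Activin A libraries SMAD7 was at 7.28, 8.07 and 6.67 FPKM, which differed from untreated by 1.34 (adjusted p = 0.022). LEFTY2, a secreted Nodal antagonist, was listed at 0 in all 3 SB431542 libraries and at 0.204, 0.0663 and 0.167 FPKM in untreated lines. It was below the filter in this comparison, and no fold can be given. In the limma fit without a filter its log2(FPKM + 1) difference was -0.19 (adjusted p = 0.28); Activin A libraries had 1.37, 0.783 and 1.20 FPKM. ID1, a helix-loop-helix inhibitor best known as a BMP target, was 5.13, 10.5 and 4.86 FPKM untreated and 4.31, 15.3 and 4.34 FPKM with SB431542. Its groups overlapped and the log2 difference was 0.05 ± 0.16 (SE, adjusted p = 0.90); it was higher in line 2 and lower in lines 1 and 3, and -0.17 with line 2 left out.

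**Figure D2:**
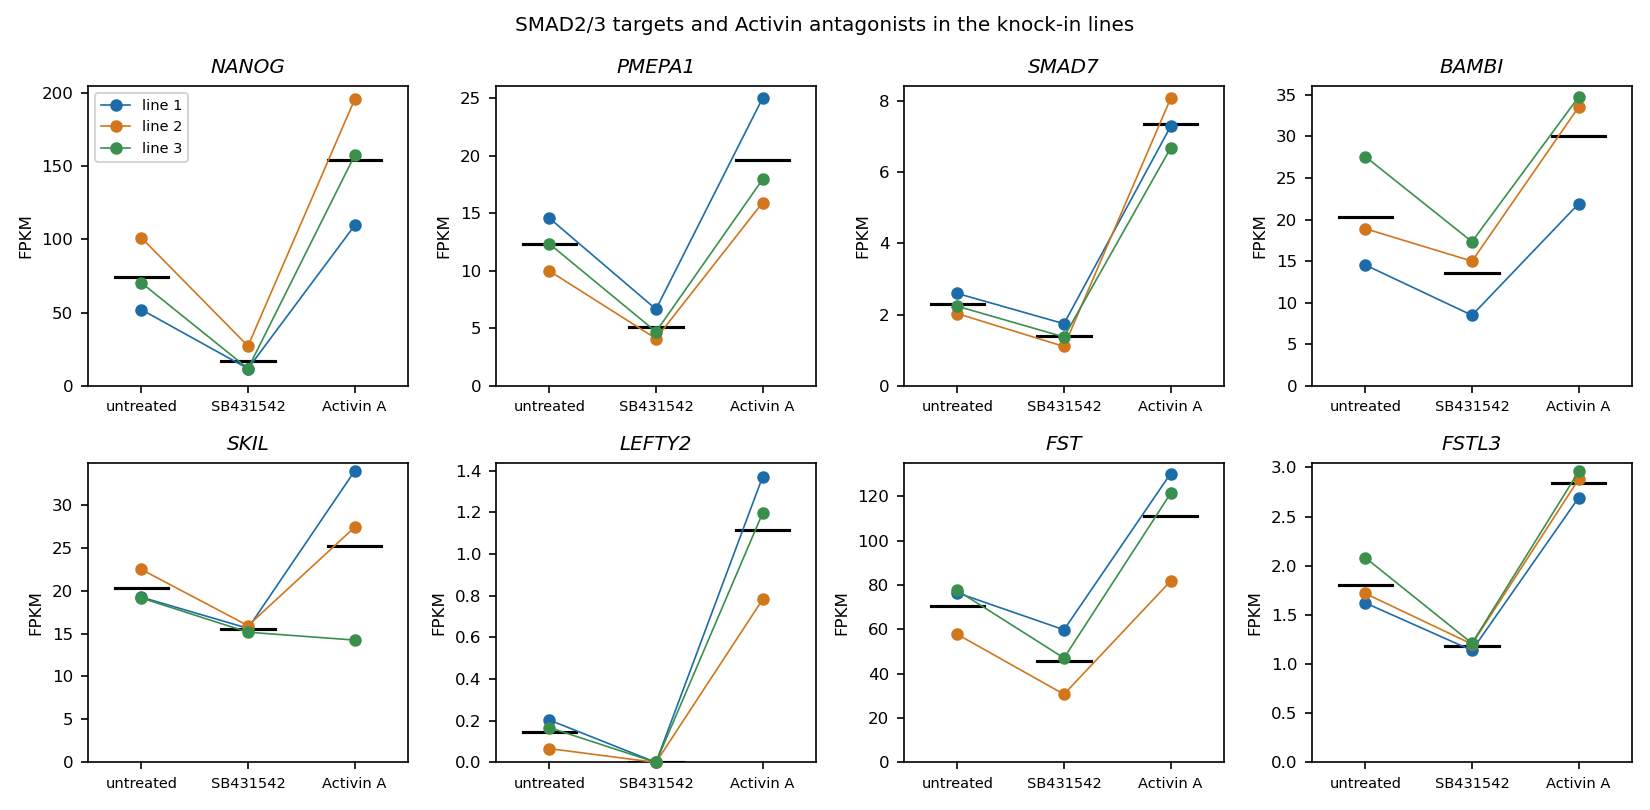
FPKM of 6 SMAD2/3 targets and 2 Activin antagonists (vertical axes, each starting at 0) in untreated, SB431542 and Activin A libraries (horizontal axis). Points are libraries, lines join the libraries of one knock-in line, and black bars are group means of 3; NANOG and PMEPA1 passed the test between untreated and SB431542, LEFTY2 is listed at 0 in the SB431542 libraries, and in SKIL the Activin A library of line 3 lies below the others.

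The rest of the SMAD2/3 target and feedback list did not pass. Of its 28 genes, 27 were matched by symbol and 18 passed the filter; 2 fell, NANOG and PMEPA1, and none rose, against 0.0644% and 0.0215% of all genes. The median log2 difference of the 18 was -0.013, beside 0.002 over all genes. Of the 18, 7 were lower and 3 higher in all 3 lines, where 19.0% of all genes were lower and 19.9% higher in all 3. In limma with 6 libraries 7 reached an unadjusted p under 0.05, 6 lower and 1 higher, beside 14.4% of all genes. SKIL, a corepressor that SMAD2/3 signalling destroys and re-induces, was 19.2, 22.5 and 19.1 FPKM untreated and 15.6, 15.9 and 15.2 FPKM treated, without overlap (log2 difference -0.36, adjusted p = 0.14). BAMBI, a decoy receptor, was 14.5, 18.9 and 27.6 FPKM untreated and 8.49, 15.0 and 17.3 FPKM treated, lower within each line but overlapping between groups (-0.55, adjusted p = 0.13). ANGPTL4, a secreted lipase inhibitor, went the other way without passing, at 2.19, 3.58 and 1.35 FPKM untreated and 4.64, 7.66 and 2.58 FPKM treated (0.78, adjusted p = 0.095).

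For LDLRAD4 and CCN2 the values of both treatments are given side by side. LDLRAD4, another membrane inhibitor of SMAD2/3, was 0.284, 0.260 and 0.337 FPKM untreated and 0.364, 0.225 and 0.304 FPKM with SB431542, a log2 difference of 0.004 (95% interval -0.17 to 0.18), while Activin A libraries held 1.601, 1.38 and 1.59 FPKM. CCN2, a matricellular protein, was 56.6, 93.9 and 67.8 FPKM untreated and 48.6, 77.2 and 40.5 FPKM with SB431542, lower in each line (log2 difference -0.41, 95% interval -0.69 to -0.13, adjusted p = 0.23), and 117, 189 and 207 FPKM with Activin A (adjusted p = 0.049 against untreated). The list as a whole had 7 members lower and 2 higher in SB431542 than in Activin A among 19 tested (1.66% and 1.21% of all genes), and 6 higher in Activin A than in untreated lines (0.337% of all genes). CER1 and GDF3 were listed at 0 in all 6 libraries, and NODAL, GSC, EOMES and MIXL1 stayed below the filter.

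None of the genes that make, receive and relay the signal passed with 6 libraries. Of the 29 ligands, receptors, SMADs and binding proteins of Activin and TGF-β, 23 were tested and 0 passed in the 6-library limma fit (5 had an unadjusted p under 0.05, beside 14.4% of all genes); 1, FST, was lower with 9 libraries, beside 0.358% of all genes. Of the receptors that the inhibitor blocks, ALK5 and ALK4 were detected: TGFBR1 (ALK5) had 30.9, 30.9 and 34.7 FPKM untreated and 34.6, 23.4 and 33.4 FPKM treated, and ACVR1B (ALK4) had 4.93, 4.15 and 4.93 FPKM untreated and 5.04, 4.05 and 4.10 FPKM treated. ACVR1C (ALK7) was at or near 0 throughout. SMAD3, one of the signal transducers, was 28.2, 25.7 and 26.7 FPKM untreated and 31.4, 24.6 and 29.5 FPKM treated, with overlapping groups. FST, follistatin, which traps Activin outside the cell, was 76.5, 57.8 and 77.5 FPKM untreated and 59.8, 30.7 and 47.1 FPKM treated. It was lower in each line, with a log2 difference of -0.65 (adjusted p = 0.13 with 6 libraries and 0.041 with 9). Its relative FSTL3 was 1.62, 1.72 and 2.08 FPKM untreated and 1.14, 1.20 and 1.21 FPKM treated, without overlap (adjusted p = 0.19). Both antagonists were higher in every Activin A library than in the untreated library of its line.

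BMP signalling runs through SMAD1, SMAD5 and SMAD9 and its ID genes serve as readouts. Of 26 tested members of that pathway, 0 passed with 6 or with 9 libraries in limma (7 at an unadjusted p under 0.05 with 6, beside 14.4% of all genes), and their median log2 difference was 0.049. ID3 was 210, 284 and 214 FPKM untreated and 253, 391 and 278 FPKM with SB431542, higher in each line (log2 difference 0.37, adjusted p = 0.11). ID2 was 19.5, 28.1 and 19.3 FPKM untreated and 20.3, 42.0 and 17.8 FPKM treated, with overlap. Against Activin A, 4 of 27 tested members were lower in SB431542 libraries (1.66% of all genes), and 6 were higher in Activin A than in untreated lines (0.337% of all genes).

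Among pluripotency factors NANOG fell and LIN28A, as an addition by adjusted p alone, rose. LIN28A is an RNA-binding protein that blocks let-7 maturation, and lies on chromosome 6 from 83806178 to 83818550. It was 163, 285 and 108 FPKM untreated and 327, 498 and 192 FPKM with SB431542. The groups overlapped because the lines differ, but each line was higher treated, by 2.01, 1.75 and 1.79 times in FPKM (log2 change 0.88 ± 0.06 SE, adjusted p = 0.036). Activin A libraries had 90.0, 200 and 67.5 FPKM, below untreated in each line (log2 difference -0.67, adjusted p = 0.049). Its paralog LIN28B was 20.9, 20.8 and 12.3 FPKM untreated and 30.0, 23.4 and 17.7 FPKM treated, higher in each line without passing (adjusted p = 0.18).

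Of the 38 listed pluripotency genes 33 were matched and 22 tested; 1 fell and 1 rose, beside 0.0644% and 0.0215% of all genes, and the median difference was -0.003. SOX2, the partner of OCT4 on DNA, was 64.0, 67.4 and 67.7 FPKM untreated and 68.8, 68.0 and 71.5 FPKM treated (log2 difference 0.06, adjusted p = 0.56). KLF4 was 68.9, 77.6 and 91.4 FPKM untreated and 70.2, 65.4 and 82.0 FPKM treated, and SALL4, ZIC2, OTX2 and DNMT3B also overlapped between groups. As a check of the labelled cell type, SOX2, NANOG, LIN28A and SALL4 were all present in all 6 libraries. POU5F1 was not paired with an identifier by symbol and was not analysed here. ZFP42, KLF17, DPPA2, DNMT3L and TDGF1 were listed at 0 in all 6 libraries, and EPCAM stayed at 0.27 to 0.45 FPKM.

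Since the paper gives LIF-free medium for the treatment and the labels give LCDMV, the LIF and STAT3 list was examined. LIF acts through LIFR and IL6ST to activate STAT3, which induces SOCS3. Of 23 tested members, 0 passed with 6 or with 9 libraries in limma (5 at an unadjusted p under 0.05 with 6, all of them lower, beside 14.4% of all genes in either direction), and the median difference was -0.046. SOCS3 was 4.19, 5.09 and 4.75 FPKM untreated and 4.61, 5.01 and 3.40 FPKM treated, with overlap. STAT3 itself was 6.52, 4.35 and 5.50 FPKM untreated and 4.15, 2.82 and 4.54 FPKM treated, lower in each line (log2 difference -0.42, adjusted p = 0.18). LIFR was 0.446, 0.370 and 0.368 FPKM untreated and 0.276, 0.262 and 0.172 FPKM treated, below the untreated range at low level. Medium and inhibitor cannot be told apart in any of these differences.

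NEUROG1, a proneural basic helix-loop-helix factor on chromosome 2 from 137763091 to 137766787, fell. It was 27.7, 24.9 and 60.1 FPKM untreated and 10.4, 8.88 and 28.9 FPKM with SB431542. Line 3 was highest in both groups, so the groups overlapped, and the call comes from the drop within each line (log2 change -1.25 ± 0.09 SE, adjusted p = 0.036; exact permutation p = 0.3 without regard to line). Activin A libraries had 41.1, 40.2 and 88.5 FPKM, above the untreated library of each line (0.59, adjusted p = 0.024).

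Some further genes with known roles in neurons passed with 9 libraries in the fit; they were picked after their values were seen and do not stand for neuronal genes in general. GAP43, a growth cone protein, was 14.6, 11.2 and 23.4 FPKM untreated and 5.88, 6.22 and 11.8 FPKM treated (log2 difference -0.95, adjusted p = 0.073 with 6 libraries and 0.023 with 9). INSM1 and NEUROD4, transcription factors of neurogenesis, differed by -0.98 (adjusted p = 0.088 with 6 and 0.046 with 9) and -0.89 (0.070 and 0.031). The RNA-binding protein ELAVL3 differed by -0.47 (0.10 and 0.035), the tubulin TUBB2B by -0.46 (0.074 and 0.015) and the axon guidance receptor DCC by -0.76 (0.10 and 0.045). In all of these each line was lower with SB431542. ACHE, acetylcholinesterase, passed in the other direction, at 0.678, 0.905 and 0.389 FPKM untreated and 1.71, 1.79 and 1.06 FPKM treated, without overlap (0.60, 0.095 and 0.024).

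In the neural ectoderm list differences ran both ways. Of its 32 genes 26 were tested, 0 passed with 6 libraries in limma and 1, HES5, was lower with 9, beside 0.358% of all genes. An unadjusted p under 0.05 with 6 libraries was reached by 16 of the 26, 10 lower and 6 higher, beside 14.4% of all genes; 9 were lower and 6 higher in all 3 lines, beside 19.0% and 19.9% of all genes, and the median was -0.088. The progenitor factor SOX1 was 8.94, 3.38 and 19.4 FPKM untreated and 8.14, 1.73 and 7.72 FPKM treated, whereas PAX6 was 0.858, 4.12 and 3.84 FPKM untreated and 1.75, 6.52 and 5.28 FPKM treated, higher in each line (adjusted p = 0.13). CDH2, neural cadherin, was 132, 161 and 160 FPKM untreated and 191, 253 and 194 FPKM treated, without overlap (log2 difference 0.48, adjusted p = 0.13).

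Notch receptors, when cut by ligand, release a domain that with RBPJ induces HES and HEY repressors. HES5 was 36.4, 24.2 and 56.9 FPKM untreated and 18.2, 8.61 and 30.3 FPKM with SB431542, lower in each line (log2 difference -1.08, adjusted p = 0.072 with 6 libraries and 0.023 with 9). HEY2 was 1.80, 2.20 and 2.19 FPKM untreated and 0.981, 1.20 and 0.902 FPKM treated (adjusted p = 0.11 with 6 and 0.042 with 9). HES1 was 10.2, 16.0 and 18.8 FPKM untreated and 6.60, 8.94 and 6.20 FPKM treated, without overlap (-0.93, adjusted p = 0.15 with 6 and 0.067 with 9).
The Notch list had 22 tested members, of which 0 passed with 6 libraries in limma (10 at an unadjusted p under 0.05, 9 of them lower) and 2, HES5 and HEY2, were lower with 9. Of the 22, 11 were lower and 2 higher in all 3 lines, and the median log2 difference was -0.144. Over all genes 19.0% were lower in all 3 lines, 14.4% had an unadjusted p under 0.05 and 0.358% were lower with 9 libraries. The ligand DLL3 was 3.48, 2.10 and 4.07 FPKM untreated and 1.03, 1.22 and 1.82 FPKM treated (adjusted p = 0.13). The receptors NOTCH2 and NOTCH3 overlapped between groups. HES5 and HES1 were the members farthest from Activin A, at log2 differences of -2.28 and -2.89 (both adjusted p = 0.0083).

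**Figure D3:**
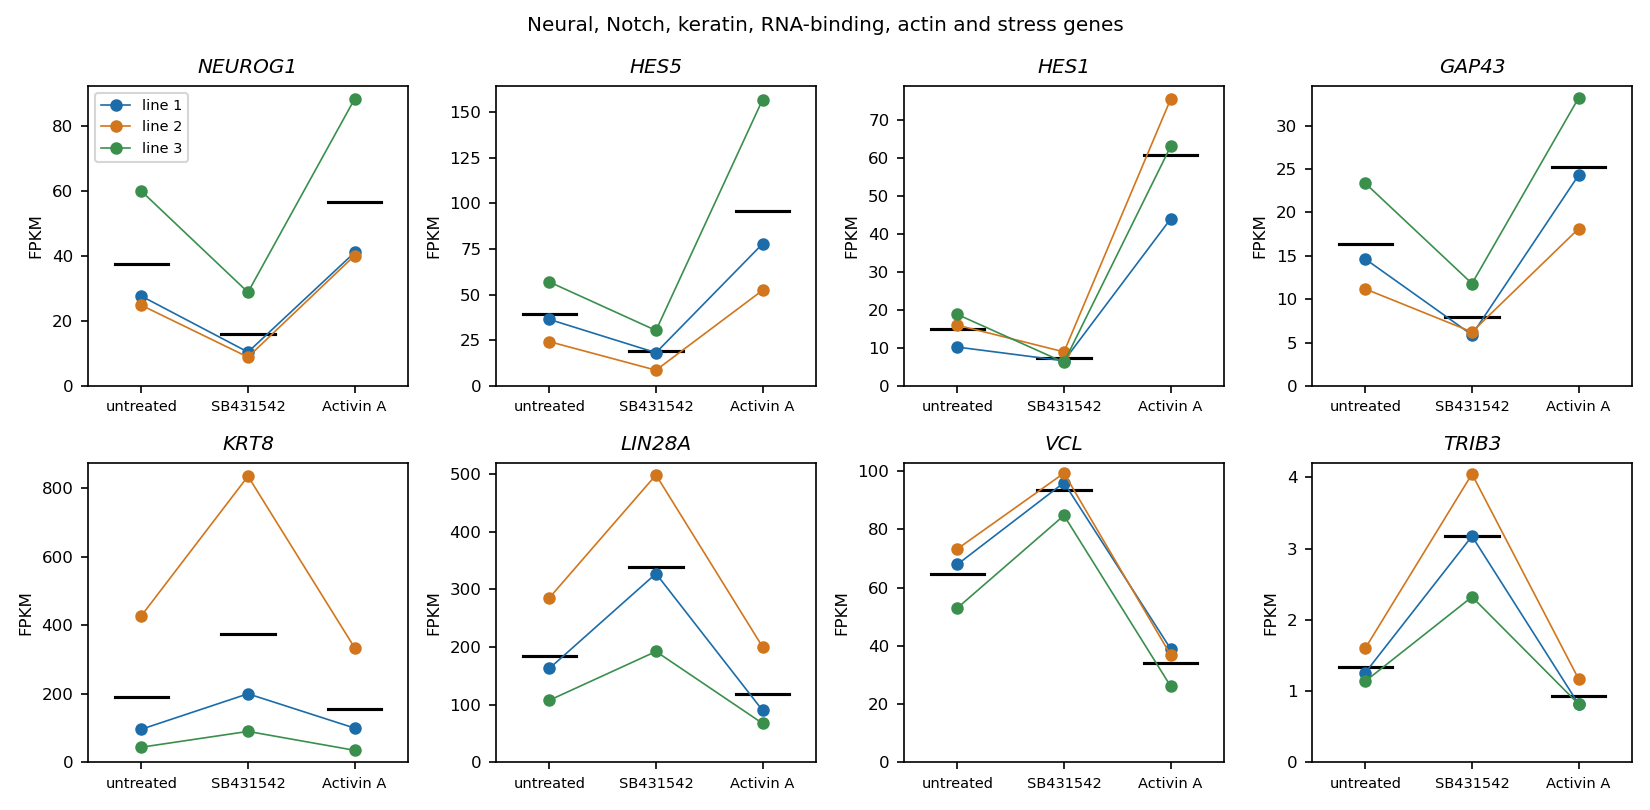
FPKM of 8 genes (vertical axes, each starting at 0) in untreated, SB431542 and Activin A libraries (horizontal axis), with lines joining the libraries of one knock-in line and black bars at the group means of 3. NEUROG1, KRT8 and LIN28A passed the test between untreated and SB431542 with 6 libraries, HES5, GAP43, VCL and TRIB3 only with 9, and HES1 with neither; line 2 stands far above lines 1 and 3 in KRT8.

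KRT8, a keratin of simple epithelia on chromosome 5 from 18172423 to 18180277, rose. It was 96.7, 428 and 44.3 FPKM in untreated lines 1 to 3 and 200, 835 and 90.4 FPKM with SB431542. Lines differed far more than treatments, so the groups overlapped (exact permutation p = 0.6 without regard to line), but each line was close to double, at 2.07, 1.95 and 2.04 times (log2 change 1.01 ± 0.04 SE, adjusted p = 0.030). In Activin A libraries it was 100, 334 and 35.3 FPKM. KRT18, its partner, was 7.57, 36.3 and 5.004 FPKM untreated and 9.87, 68.8 and 6.81 FPKM treated, higher in each line without passing (adjusted p = 0.19).
The trophectoderm and simple epithelium list held 16 tested genes, of which KRT8 alone passed, beside 0.0215% of all genes higher by adjusted p. CDX2, the trophectoderm factor, was listed at 0 in all 6 libraries, and CDH1 was 5.01, 17.5 and 2.63 FPKM untreated and 5.30, 16.9 and 3.20 FPKM treated. TFAP2C was 2.82, 9.41 and 2.28 FPKM untreated and 1.27, 6.36 and 1.01 FPKM treated (adjusted p = 0.10). The mesendoderm list had 14 tested genes and 0 passed with 6 or with 9 libraries in limma (3 at an unadjusted p under 0.05 with 6, beside 14.4% of all genes). Of the 14, 5 were lower and 2 higher in all 3 lines, beside 19.0% and 19.9% of all genes. Their median log2 difference was -0.129.

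COL1A2, the α2 chain of type I collagen on chromosome 9 from 74174484 to 74210407, fell. It was 12.7, 9.02 and 10.2 FPKM untreated and 4.77, 3.24 and 4.66 FPKM with SB431542, without overlap (log2 change -1.16 ± 0.09 SE, adjusted p = 0.042). COL3A1 had one of the largest differences of any gene but the lines disagreed on its level: it was 0.771, 3.32 and 23.2 FPKM untreated and 0.0156, 0.215 and 2.73 FPKM treated (-1.78, adjusted p = 0.16), and 6.57, 7.47 and 42.9 FPKM with Activin A. The identifier named COL1A1 was under 1 FPKM in every one of the 6 libraries.
Collagens also mark fibroblasts and mural cells, which feeders or the pericytes of origin could bring. Over the whole marker list 21 of 27 genes were tested, COL1A2 alone passed (0.0644% of all genes were lower by adjusted p), and the median was -0.132. Of the 21, 10 were lower and 3 higher in all 3 lines, beside 19.0% and 19.9% of all genes, and 7 were lower and 3 higher at an unadjusted p under 0.05, which 14.4% of all genes reached, so further markers of this list lay lower along with COL1A2, and their part in its change was not tested. The summed level of the list was 916 to 1014 FPKM in untreated and 927 to 1055 FPKM in SB431542 libraries, most of it from VIM and TAGLN, so the sum says little of the other markers. LUM and PDGFRA, defining fibroblast markers, were at most 0.0225 and 0.316 FPKM, and THY1 was 1.43 to 1.95 FPKM untreated and 0.812 to 1.63 FPKM treated. Fewer cells of a type and less RNA per cell cannot be told apart in these bulk libraries.

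Of the actin genes ACTG2 alone passed. ACTG2, smooth muscle γ-actin on chromosome 3 from 69097366 to 69121542, was 22.7, 22.9 and 55.6 FPKM untreated and 12.5, 13.2 and 33.8 FPKM with SB431542, and fell by adjusted p alone (log2 change -0.75 ± 0.05 SE, adjusted p = 0.036). Activin A libraries had 20.0, 18.1 and 49.8 FPKM, also below the untreated library of each line (log2 difference -0.22, limma adjusted p = 0.24). SB431542 lay 0.535 below Activin A on that scale (limma adjusted p = 0.035). Among genes of the actin, SRF and YAP list it was the 1 of 26 tested that passed with 6 libraries, beside 0.0644% of all genes lower. Differences in the list ran both ways, with 6 members lower and 9 higher in all 3 lines, beside 19.0% and 19.9% of all genes. In limma with 6 libraries 10 of the 26 reached an unadjusted p under 0.05, 2 lower and 8 higher, beside 14.4% of all genes. The list median was 0.097. With 9 libraries 4 more were past the test as higher, opposite to ACTG2, beside 0.193% of all genes. They were VCL, vinculin of focal adhesions, TPM1, a tropomyosin, ACTN1, an actin cross-linker, and AJUBA, a LIM-domain adaptor. VCL was 67.9, 73.2 and 53.0 FPKM untreated and 96.0, 99.2 and 84.7 FPKM treated, without overlap (log2 difference 0.53, adjusted p = 0.081 with 6 and 0.038 with 9). TPM1, ACTN1 and AJUBA differed by 0.41, 0.33 and 0.40 (adjusted p = 0.13, 0.097 and 0.095 with 6, and 0.048, 0.025 and 0.038 with 9). In Activin A libraries VCL was 38.9, 36.9 and 26.1 FPKM, below untreated in every line (-0.92, adjusted p = 0.015). The SRF-driven genes TAGLN, CNN1 and SRF itself overlapped between groups, and ACTA2, smooth muscle α-actin, was 17.5, 12.2 and 11.4 FPKM untreated and 20.6, 18.7 and 18.9 FPKM treated (0.49, adjusted p = 0.16).

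The following genes past the test lie outside the gene lists. WFDC1, a secreted protein with a WAP domain on chromosome 6 from 4333729 to 4365122, fell. It was 7.05, 14.3 and 18.1 FPKM untreated and 2.02, 5.51 and 5.85 FPKM with SB431542, without overlap (log2 change -1.38 ± 0.08 SE, adjusted p = 0.036). Activin A libraries had 18.9, 23.8 and 36.6 FPKM (log2 difference from untreated 0.99, adjusted p = 0.059).
RASL11A, a small GTPase on chromosome 11 from 4746408 to 4748895, was 7.03, 4.71 and 13.8 FPKM untreated and 2.98, 1.86 and 5.96 FPKM treated, and fell within each line although the groups overlapped (-1.03 ± 0.08 SE, adjusted p = 0.042). In Activin A libraries it was 8.19, 3.56 and 15.3 FPKM, with a log2 difference of 0.002 from untreated (adjusted p = 1.0). NNAT, the imprinted gene of the membrane proteolipid neuronatin, was 41.8, 76.5 and 53.5 FPKM untreated and 25.4, 48.6 and 31.3 FPKM treated (-0.70 ± 0.05 SE, adjusted p = 0.036 with no fold threshold).
RF00598 was listed at 0 in the 3 untreated libraries and at 1.26, 1.45 and 0.963 FPKM in the SB431542 libraries. It passed the filter only through the libraries where it is high, so its values are given as a description, with no fold or test. It carries an Rfam family name. Activin A libraries had 0, 0.428 and 0.695 FPKM.

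**Figure D4:**
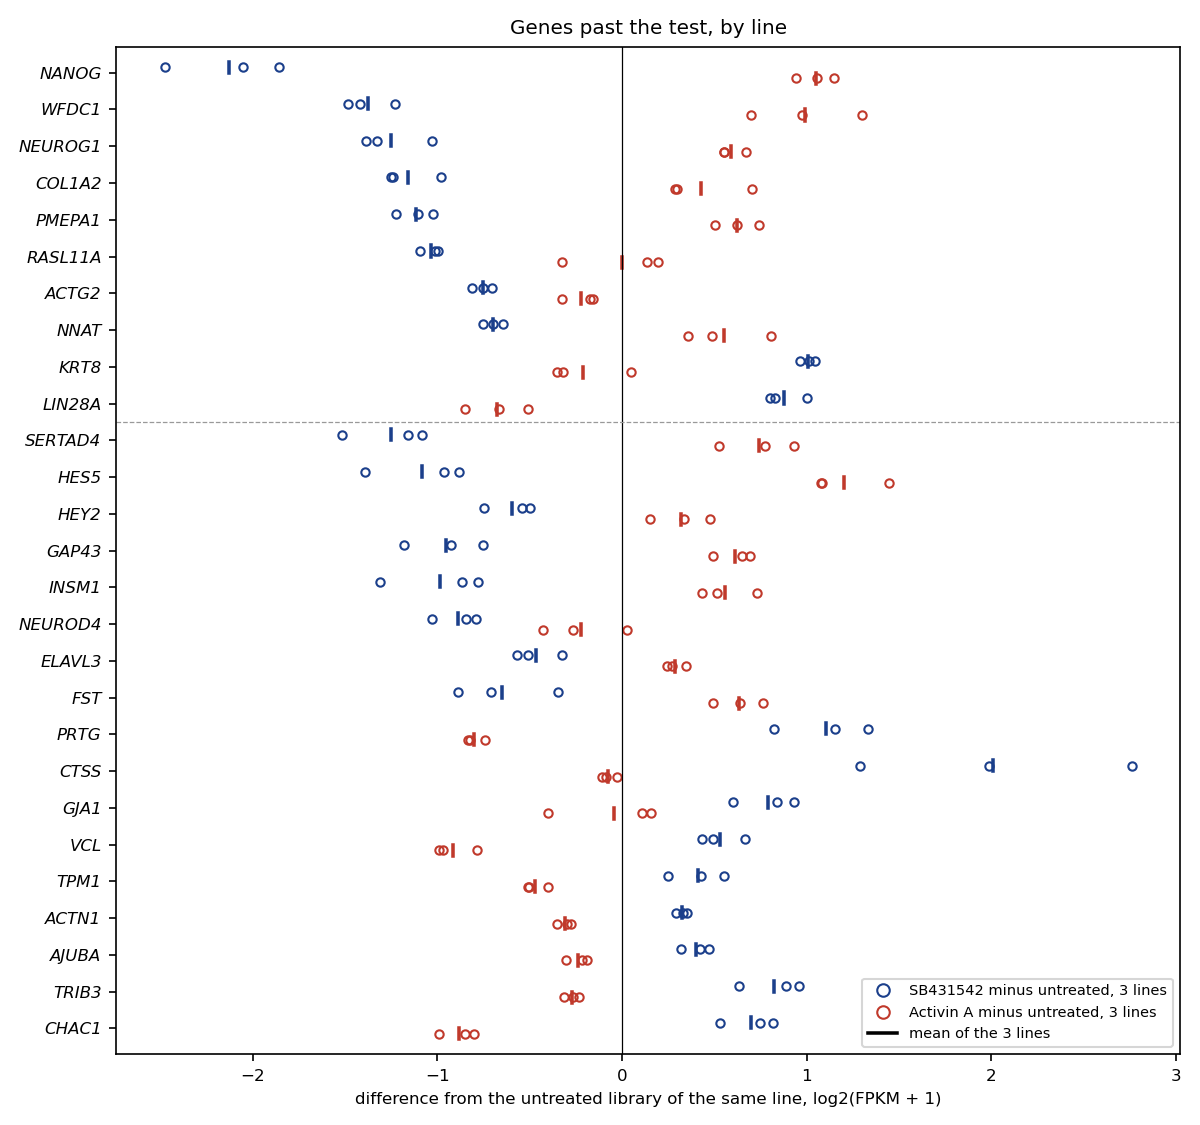
Difference from the untreated library of the same line (horizontal axis, log2(FPKM + 1)) for SB431542 (blue) and Activin A (red), 3 open points for the 3 lines and a bar at their mean. Above the dashed line are 10 of the 12 genes past the test with 6 libraries (RF00598, listed at 0 in untreated lines, is among those left out) and below it 17 past it only with 9; the SB431542 points of RASL11A and KRT8 nearly coincide, and those of CTSS are the widest.

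Higher with 9 libraries in the fit were several genes with large differences. CTSS, the lysosomal protease cathepsin S, was 0.143, 0.215 and 1.03 FPKM untreated and 3.52, 7.22 and 3.95 FPKM with SB431542, without overlap (log2 difference 2.01, adjusted p = 0.10 with 6 and 0.032 with 9). Its Activin A libraries stayed at 0.122, 0.144 and 0.884 FPKM. PRTG, protogenin of the immunoglobulin superfamily, was 20.0, 29.5 and 11.6 FPKM untreated and 52.0, 53.0 and 27.0 FPKM treated, higher in each line (1.10, adjusted p = 0.070 with 6 and 0.014 with 9). GJA1, the gap junction protein connexin 43, was 15.9, 56.2 and 12.1 FPKM untreated and 29.4, 108 and 18.9 FPKM treated (0.79, adjusted p = 0.070 and 0.033).

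Among stress response genes more were higher than lower in all 3 lines, but none passed with 6 libraries. Of 25 tested, 0 passed with 6 libraries in limma (14 at an unadjusted p under 0.05, 13 of them higher) and 2 were higher with 9; 13 were higher and 1 lower in all 3 lines, and the median log2 difference was 0.175. Over all genes 19.9% were higher in all 3 lines, 14.4% had an unadjusted p under 0.05 and 0.193% were higher with 9 libraries. The 2 are targets of ATF4, the transcription factor of the integrated stress response. TRIB3, a pseudokinase, was 1.26, 1.603 and 1.14 FPKM untreated and 3.18, 4.05 and 2.32 FPKM treated, without overlap (0.82, adjusted p = 0.085 with 6 and 0.024 with 9). CHAC1, which degrades glutathione, was 9.38, 12.8 and 7.72 FPKM untreated and 17.3, 22.1 and 11.6 FPKM treated (0.70, 0.080 and 0.023). ASNS and ATF4 itself were higher in each line at 0.47 and 0.18 (adjusted p = 0.095 and 0.22), whereas the chaperones HSPA5 and HSPA8 differed by 0.006 and -0.13.

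The remaining lists had no member past the test. In the FGF and ERK list 0 of 32 tested genes passed with 6 or 9 libraries in limma (15 at an unadjusted p under 0.05 with 6, 10 lower and 5 higher, beside 14.4% of all genes), and the median was -0.093. Of the 32, 14 were lower and 7 higher in all 3 lines, beside 19.0% and 19.9% of all genes. The immediate early gene FOS was 47.1, 69.3 and 48.2 FPKM untreated and 37.9, 51.0 and 38.0 FPKM treated, lower in each line (adjusted p = 0.10), and 111, 191 and 119 FPKM with Activin A. Against Activin A, 9 of 33 tested members of this list were lower and 3 higher in SB431542 libraries (1.66% and 1.21% of all genes), and 5 of 35 were higher in Activin A than in untreated lines (0.337% of all genes). WNT (32 tested), extracellular matrix (28), cell cycle (28), glycolysis and hypoxia (28), mitochondrially encoded (13) and housekeeping (13) lists each had 0 members past the test with 6 or with 9 libraries in limma. With 6 libraries an unadjusted p under 0.05 was reached by 7, 6, 6, 4, 1 and 0 of them in that order, beside 14.4% of all genes, and the list medians lay between -0.054 and 0.021. AXIN2, the feedback readout of WNT signalling, was 41.5, 70.2 and 57.0 FPKM untreated and 43.5, 76.2 and 59.0 FPKM treated, and CDKN1C, a cyclin-dependent kinase inhibitor, was 30.5, 35.1 and 47.1 FPKM untreated and 23.8, 24.5 and 26.4 FPKM treated, without overlap (adjusted p = 0.13).

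**Figure D5:**
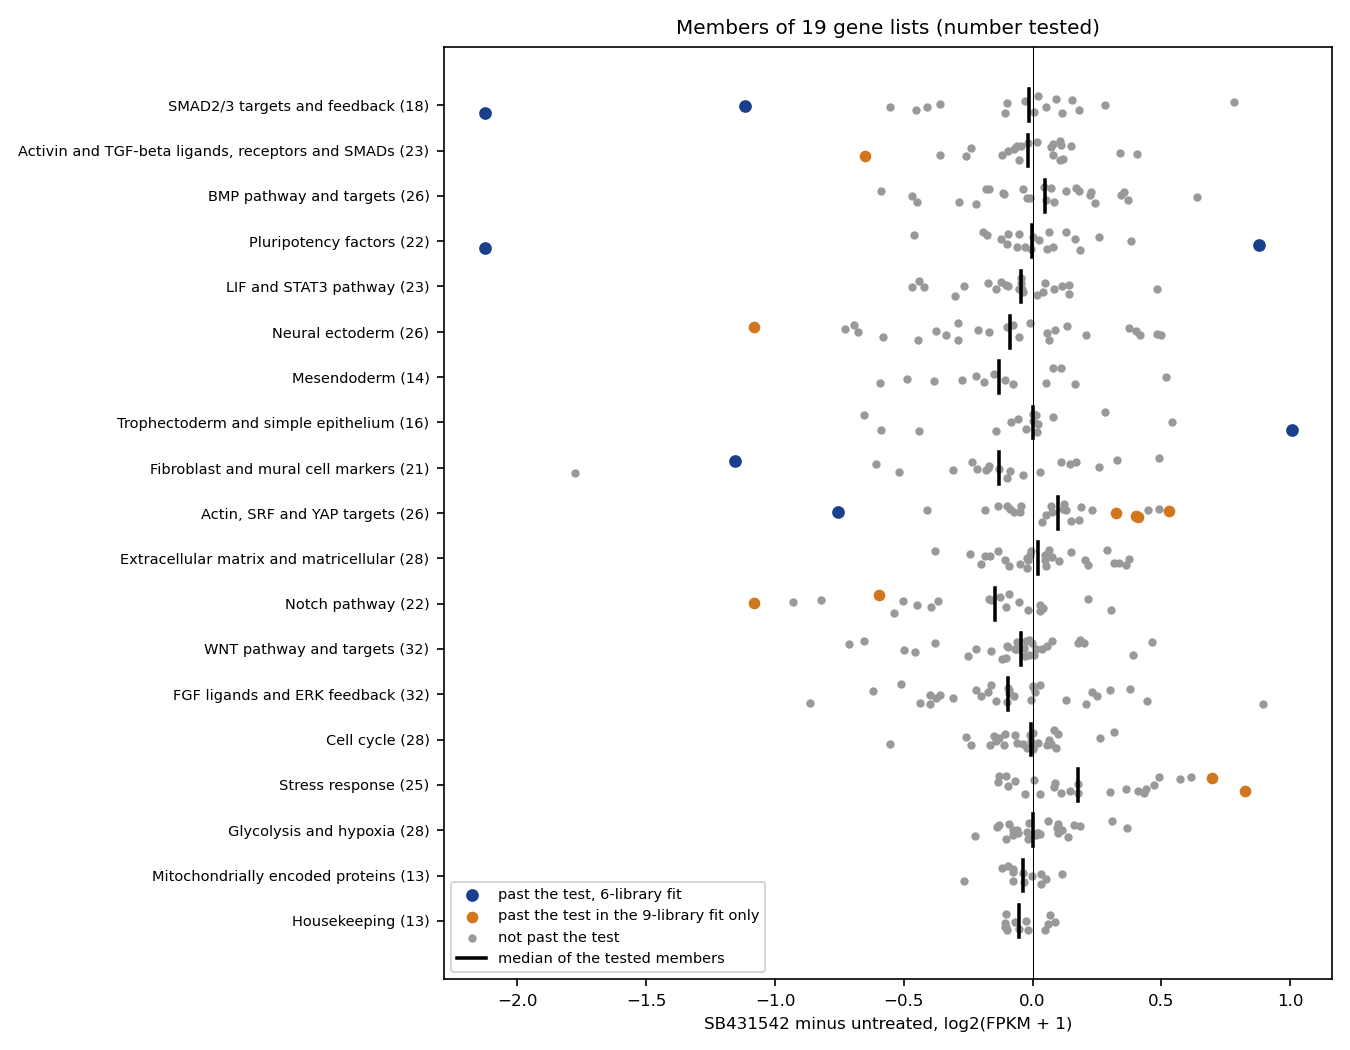
Log2(FPKM + 1) difference between SB431542 and untreated lines (horizontal axis) for the tested members of 19 gene lists (rows, number tested in brackets), with a black bar at each median. Blue points passed the test with 6 libraries, orange ones only with 9; medians lie from -0.144 in the Notch list to 0.175 in the stress response list, and NANOG appears in 2 rows.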

How the data were processed

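RNA was sequenced from 12 libraries, 3 in each of 4 groups, and 6 enter the comparison. The deposited FPKM values were made by the authors, who used Trim Galore for trimming, HISAT2 2.0.4 for alignment to the Ssc11.1 genome and StringTie 1.3.3 with the Ensembl annotation; per the submitters' processing notes they also used featureCounts 1.6.4 and DESeq2. No read counts were used here, so depth is relative only. Both deposited tables hold the same 24358 genes, and FPKM was scaled within each library, so the tables share no joint normalization. Symbols came from the files for 17451 genes and from a reference list of gene names for 965.

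Genes with at least 0.1 FPKM in 3 of 6 libraries were kept, 1 was added before log2, and limma 3.58.1 (R 4.3.3) was run with a variance trend and the line number as a block, with Benjamini-Hochberg adjustment over all genes tested. Thresholds followed the study's: log2 change of at least 1 and adjusted p of at most 0.05. Fold changes are on the log2(FPKM + 1) scale and understate those of low genes. The fit was tested on simulated data, but the outcome is not reported here and lends the calls no weight. The pairing rests on equal numbers in the labels, which do not state a shared source, and on the data: deviations from group means correlated at 0.512, 0.628 and 0.569 between the treated and untreated libraries of lines 1, 2 and 3.

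The genes named are the called genes with a symbol and the same direction in all 3 lines (at most 12 each way), called members of the lists (at most 6 a list), and NANOG, LEFTY2, SMAD7 and ID1; others were chosen after their values were seen. Of the called genes, 1 is counted but not reported here by name. The members, the comparison and the 19 lists (511 genes, 481 matched by symbol) were chosen with earlier results of these data known. Lists were not tested. Coordinates are from RefSeq, Sscrofa11.1, by symbol. Figures were drawn with matplotlib 3.10.9 (Python 3.11.15, pandas 2.3.3, numpy 2.4.6).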

Additional observations from a re-analysis of the deposited data

How the results depend on the processing

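The 7 lower and 2 higher calls depended on the processing. At a pseudocount of 0.1 there were 11 lower, and at a filter of 1 FPKM 1 higher. Quantile normalization left 1 lower and 1 higher, and the fit of 9 libraries gave 4 higher. Limma called 0 in either direction without the filter (2139 genes at an unadjusted p under 0.05), without the variance trend (1969) and without the replicate block (631, a share below 0.05). Leaving out each line in turn gave 0 to 13 lower and 0 to 6 higher. For SB431542 against Activin A the replicate block mattered too, with 73 lower and 26 higher with it and 8 and 5 without; leaving out lines gave 2 to 60 lower and 0 to 27 higher (without line 1, 2446 genes had an unadjusted p under 0.05). For Activin A against untreated lines, 5 lower and 22 higher became 0 and 0 without the block (601 at an unadjusted p under 0.05, also a share below 0.05). Leaving out lines gave 0 to 7 and 0 to 19 (without line 1, 1390). The causes were not tested. Over 14 alternatives the log2 change of NANOG ran from -2.27 to -1.95 and passed in 9 of them, with adjusted p from 0.0066 to 0.74. Of 28 genes followed, ID1 alone changed direction, running from -0.17 without replicate 2 to 0.19 without replicate 1; 10 of 133 list medians moved by more than the spread between lines. Absolute depth is unknown, so no counting error can be given for genes under about 1 FPKM.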

Other observations

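A few further genes differed between SB431542 and untreated lines without passing the test with 6 libraries; they were chosen after their values were seen. DBH, dopamine β-hydroxylase of noradrenaline synthesis, was 8.07, 11.2 and 4.18 FPKM untreated and 2.00, 2.09 and 2.48 FPKM with SB431542, without overlap (limma adjusted p = 0.16), and 23.6, 27.2 and 9.60 FPKM with Activin A. PADI2, an enzyme that turns peptidyl arginine into citrulline, was 1.21, 0.378 and 0.552 FPKM untreated, 5.80, 1.39 and 2.33 FPKM with SB431542 (adjusted p = 0.11) and 0.281, 0.168 and 0.318 FPKM with Activin A. ZNF513, a zinc finger protein, was 0.902, 1.11 and 2.59 FPKM untreated and 5.42, 6.97 and 5.71 FPKM with SB431542 (adjusted p = 0.10), and 1.16, 1.12 and 7.11 FPKM with Activin A, where line 3 stood apart. TXNIP and ARRDC4, arrestin-family genes that respond to glucose, were higher in each SB431542 library than in the untreated library of its line, by 0.43 (adjusted p = 0.22 with 6 libraries and 0.11 with 9) and 0.57 (adjusted p = 0.12 with 6 and 0.048 with 9, where ARRDC4 passed) on the log2 scale.

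NANOG in the parental line without the reporter was 9.71, 16.4 and 27.6 FPKM. Those libraries lie in the table of the untreated lines and entered no test here.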
